A study of Mus musculus with 21 samples.

Results

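A set of 8 long noncoding RNAs known from heart research, Malat1, Neat1, Meg3, Rian, Mirg, H19, Miat and Gas5, was followed through 4 groups of mouse left ventricles. The members were listed by symbol, with earlier results of these data known, and all 8 were present among the 24054 rows of the gene table. Myocardium of C57BL/6J mice was sampled in 21 animals, each with its own ear tag and 1 library. The groups were transverse aortic constriction (TAC, a band that narrows the aorta and loads the left ventricle with pressure) with the PDE5A inhibitor sildenafil (PDE5A-I, 5 mice), TAC with the PDE9A inhibitor PF-04449613 (PDE9A-I, 6 mice), TAC with no drug (5 mice) and sham surgery with no drug (5 mice). Either drug was given for 4 weeks, beginning 1 week after the operation. PDE5A and PDE9A break down cyclic GMP, and the series asks how blocking each of them alters expression in the loaded heart. The sources used here give neither the drug doses or vehicle nor the sex and age of the mice.

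Long noncoding RNAs are transcripts with no long open reading frame, many of which act inside the nucleus. Malat1 and Neat1 are neighbours that mark nuclear bodies: Malat1 collects in nuclear speckles, where splicing factors are stored, and Neat1 is the scaffold of paraspeckles. Meg3, Rian and Mirg are expressed from the maternal copy of the Dlk1-Dio3 imprinted domain and carry microRNAs and small nucleolar RNAs in their bodies, while H19 is the maternally expressed partner of Igf2 and the host of miR-675. Gas5 is a host gene of small nucleolar RNAs whose spliced transcript is cleared by nonsense-mediated decay, and Miat was named from a human genetic study of myocardial infarction.

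None of the 8 members passed the test in any of the 6 comparisons between groups. The quasi-likelihood test of edgeR was fitted to all genes, and a gene was called at a Benjamini-Hochberg adjusted p under 0.05. The low-count filter kept 6 members among 14135 genes and removed Mirg and Miat. In TAC against sham 0 of the 6 members tested were called, where 25.2% of all genes tested were called. The corresponding share of all genes was 14.6% for TAC with PDE5A-I against sham, 3.82% for TAC with PDE9A-I against sham, 0.0141% for PDE5A-I against TAC, 0.00707% for PDE9A-I against TAC and 0.00707% for PDE5A-I against PDE9A-I, again with 0 members called. At an unadjusted p under 0.05 there was 1 member, H19, in TAC against sham, where 39.6% of all genes passed, and 0 members in the other comparisons, where 5.17% passed for PDE5A-I against TAC, 14.6% for PDE9A-I against TAC, 10.4% for PDE5A-I against PDE9A-I, 32.8% for PDE5A-I against sham and 27.2% for PDE9A-I against sham. DESeq2, run beside edgeR, also called 0 members in each comparison. In no comparison were the groups of any tested member free of overlap, where 16.5% of all genes had none in TAC against sham, 15.6% in PDE5A-I against sham, 3.47% in PDE9A-I against sham, 0.990% in PDE5A-I against TAC, 0.509% in PDE9A-I against TAC and 0.757% in PDE5A-I against PDE9A-I. The median log2 fold change of the 6 members in TAC against sham was 0.257, beside -0.001 for all genes tested.

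**Figure D1:**
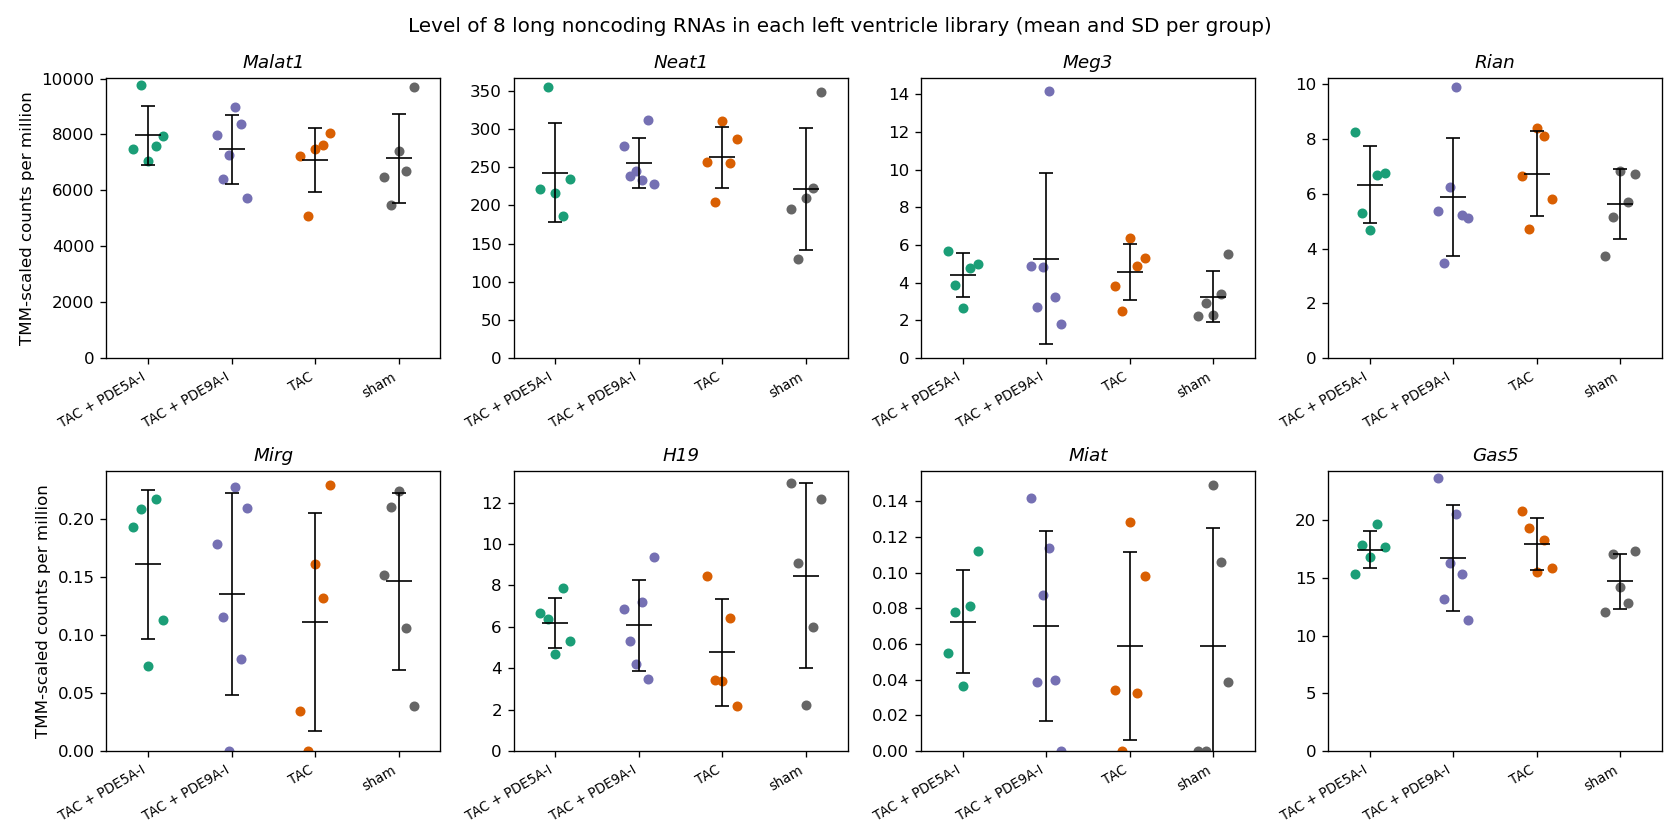
Each point is the level in CPM, counts scaled to library size with TMM factors (y axis, from 0, its own scale per gene), of 1 long noncoding RNA in 1 left ventricle library, by group on the x axis; the bar and whiskers are the mean and SD of 5 or 6 mice. The groups overlap for every gene, and PDE9A-I library 4 stands alone for Meg3 at 14.2.

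Genes known to answer pressure overload did differ between the same libraries. All 10 load and fibrosis genes tested rose in TAC against sham with a median log2 fold change of 2.50. Libraries held 26.7 to 36.5 M counts in PDE5A-I mice, 24.3 to 34.1 M in PDE9A-I mice, 22.7 to 30.5 M in TAC mice and 25.9 to 41 M in sham mice. Cardiomyocyte markers were high in every library, at a summed 133600 CPM or more. Of all genes tested 25.2% were called in TAC against sham. Of the cell type markers there, 8 of 12 fibroblast, 9 of 10 activated fibroblast and 4 of 7 tested lymphocyte genes rose. Of 12 cardiomyocyte genes 6 fell, and 3 of 6 tested Schwann and nerve genes fell. Of 10 smooth muscle and pericyte genes 2 rose and 1 fell, and of 5 tested skeletal muscle genes 1 rose and 2 fell. In the endothelial (12 tested), macrophage (9) and adipocyte (2) lists 1 gene fell each. Of 2 tested atrial genes 1 rose, and 0 of 2 tested mesothelium and epicardium genes were called. None of the 9 erythroid genes was called by edgeR (0 calls), but all 9 had a negative log2 fold change and DESeq2 called 4. An unadjusted p under 0.05 was met by 7 of the 9, where 39.6% of all genes tested had one. In whole tissue, fewer cells of a type and less RNA per cell cannot be told apart, and the part of cell makeup in the members' levels was not tested. PDE9A-I libraries 1 and 4 had the highest share of counts on Rn45s, the ribosomal RNA precursor, at 0.326 and 0.416%, against 0.192 to 0.278% in the others.

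The members span a wide range of abundance, given here as CPM, counts scaled to the size of each library. Per kilobase of exon, the group means of Malat1 were 1140 CPM in PDE5A-I mice, 1070 CPM in PDE9A-I mice, 1020 CPM in TAC mice and 1020 CPM in sham mice. For Neat1 they were 11.7, 12.3, 12.7 and 10.6 CPM per kilobase in the same groups. Gas5 and H19 came next in sham mice at 3.91 and 3.45 CPM per kilobase. Rian and Meg3 followed at 0.309 and 0.181 CPM per kilobase in sham mice, and Mirg and Miat were at 0.02 and 0.00632. By count Malat1 was among the 12 highest of 24054 rows in every library, with a best rank of 4.

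Malat1 (ENSMUSG00000092341.3, a lincRNA of 6983 exonic bases, GRCm38 chr19:5795690-5802672, minus strand) took 0.501 to 1.03% of all counts in a library. In TAC mice its level was 7218, 5096, 7473, 7621 and 8037 CPM, against 6480, 5469, 7401, 6703 and 9711 CPM in sham mice. The TAC values lay inside the sham range apart from library 2, which was the lowest of all 21. The group means were 7089 ± 1153 CPM in TAC and 7153 ± 1589 CPM in sham (SD, n = 5 each), a log2 fold change of -0.013 (SE 0.155, adjusted p = 0.96 by edgeR). The 95% interval of the change ran from 0.793 to 1.24-fold. The sign of this small difference depended on single libraries, with values from -0.088 to 0.121 when each library was left out in turn.

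With an inhibitor, Malat1 was 7466, 9772, 7055, 7584 and 7941 CPM in PDE5A-I mice and 7989, 6424, 7265, 8994, 8365 and 5743 CPM in PDE9A-I mice. Both sets overlap the TAC and the sham values. PDE5A-I against TAC gave a log2 fold change of 0.17 (SE 0.155, adjusted p = 0.962) and PDE9A-I against TAC 0.074 (SE 0.148, adjusted p = 0.848), by edgeR. These comparisons share the TAC libraries. The order of the group means was PDE5A-I, PDE9A-I, sham and TAC, and no neighbours in that order differed beyond their spread.

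The promoter of Malat1 is printed because Malat1 was in 2 of the 3 pairs of members whose levels passed the correlation test between mice. The window runs from 250 bases before to 50 after the RefSeq start, and capitals mark each match on either strand to TGACG, the core of the cyclic AMP response element. The window holds 3 of these matches and 0 of the full element TGACGTCA. It also holds 0 matches to the TATA box, CCAAT box, GC box, E-box and GATA motifs that were searched. Of 32817 promoter windows of the same length, 20.8% hold at least 1 TGACG match, and the share that hold 3 was not computed.
Malat1 promoter, chr19:5802623-5802922 of GRCm38.p6, minus strand: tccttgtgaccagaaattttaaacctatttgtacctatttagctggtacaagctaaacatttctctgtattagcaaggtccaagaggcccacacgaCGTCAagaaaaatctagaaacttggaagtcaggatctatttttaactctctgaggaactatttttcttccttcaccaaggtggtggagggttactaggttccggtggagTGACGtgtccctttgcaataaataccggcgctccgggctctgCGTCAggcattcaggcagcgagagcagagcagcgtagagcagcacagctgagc

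Neat1 (ENSMUSG00000092274.3, a lincRNA of 20771 exonic bases, chr19:5824708-5845478, minus strand) lies 22035 bases from Malat1. Its short and long forms share their beginning, so the count of the gene does not separate them. Neat1 stood at 256, 205, 311, 255 and 287 CPM in TAC mice, against 195, 130, 210, 222 and 349 CPM in sham mice. The highest and the lowest of these 10 values were both sham libraries. TAC averaged 263 ± 40.0 CPM and sham 221 ± 79.5 CPM (SD, n = 5 each), a log2 fold change of 0.25 (SE 0.198, adjusted p = 0.363 by edgeR, 95% interval 0.893 to 1.58-fold). Leaving out each library in turn moved it between 0.116 without sham library 2 and 0.473 without sham library 5, where the adjusted p was 0.054. Neat1 was 221.9, 354.9, 216.5, 186.6 and 234.1 CPM with PDE5A-I and 277.2, 238.8, 245.5, 233, 311.3 and 227.9 CPM with PDE9A-I. PDE5A-I library 2 was the highest of all 21, and the other libraries with an inhibitor lay inside the sham range. Against TAC the log2 fold change of Neat1 was -0.12 with PDE5A-I (SE 0.198, adjusted p = 0.966) and -0.041 with PDE9A-I (SE 0.189, adjusted p = 0.944), by edgeR.

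Proteins of the bodies that Malat1 and Neat1 mark are set here beside the 25.2% of all genes called. Of 20 nuclear speckle and SR protein genes tested in TAC against sham, 0 rose and 0 fell. Their median log2 fold change was 0.003 beside -0.001 for all genes tested. An unadjusted p under 0.05 was met by 1 of them, where 39.6% of all genes tested had one, and DESeq2 called 1. Of 20 paraspeckle protein genes 0 rose and 1 fell, with a median of -0.031. The one that fell was Dazap1, an RNA-binding protein of paraspeckles, at 28.6 ± 2.85 CPM in TAC against 33.4 ± 3.09 CPM in sham (log2 fold change -0.23, SE 0.075, adjusted p = 0.0335 by edgeR), and its call held in 3 of the 10 fits that leave out 1 library. Among 12 tested genes beside Malat1 and Neat1 on chromosome 19, 2 rose and 1 fell. Ltbp3, which binds latent TGF-beta, was at 49.9 ± 19.4 CPM in TAC against 22.2 ± 3.64 CPM in sham (log2 fold change 1.17, SE 0.342, adjusted p = 0.0194). It lost its call without TAC library 3 or TAC library 4. Ehbp1l1, an actin-linked membrane protein, rose by 0.225 (SE 0.074, adjusted p = 0.0322), a call that held in 4 of the 10 fits without 1 library. Dpf2, a subunit of chromatin remodelling complexes, fell to 30.2 ± 1.78 CPM in TAC, against 34.7 ± 1.85 CPM in sham (log2 fold change -0.203, SE 0.056, adjusted p = 0.0151 by edgeR), and held in 9.

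**Figure D2:**
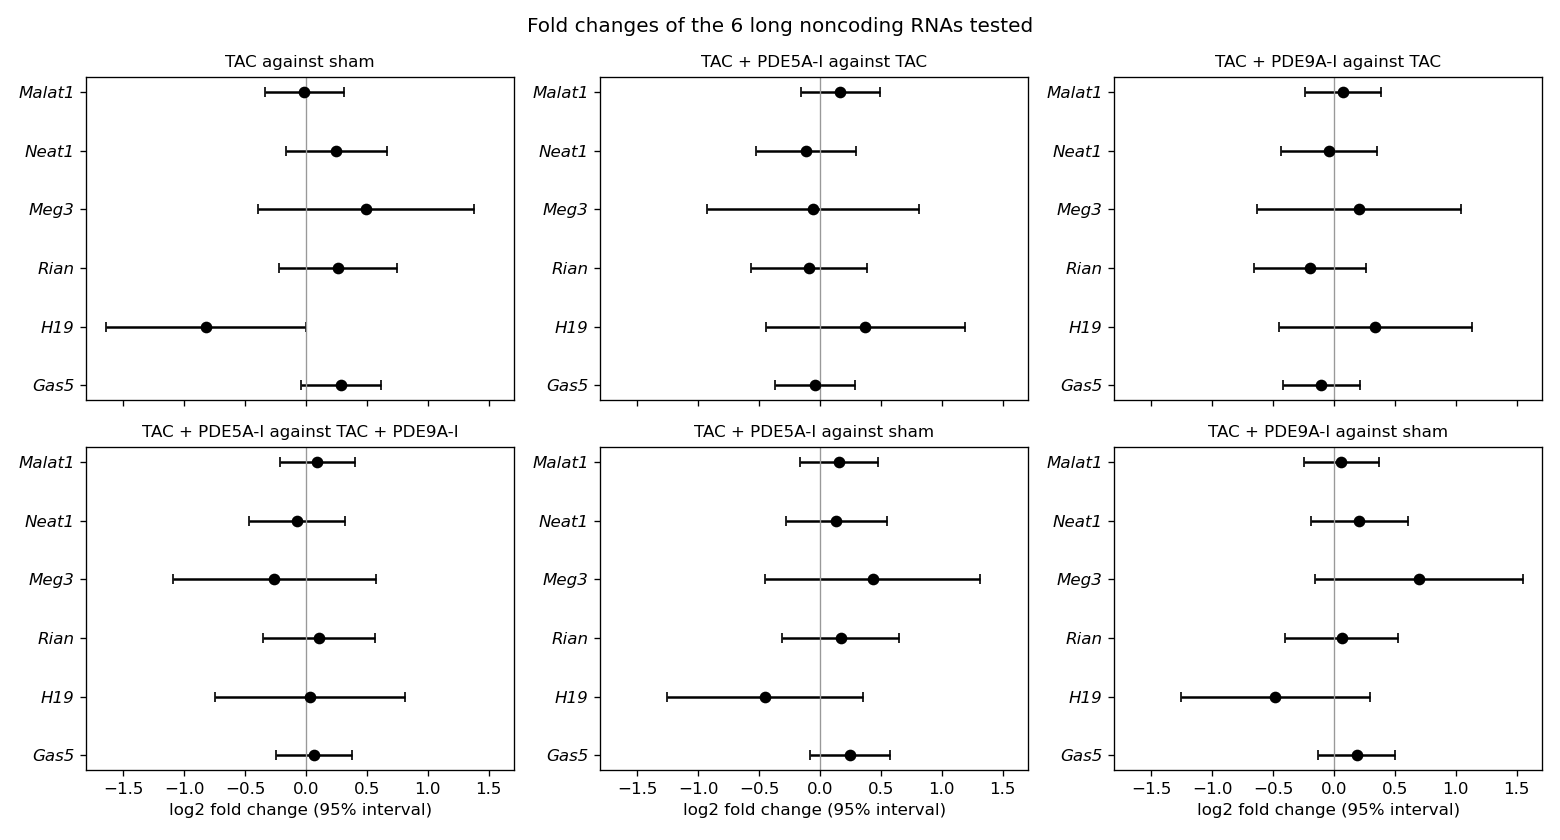
Points are edgeR log2 fold changes (x axis) and lines their 95% intervals for the 6 members tested (y axis), with 1 panel per comparison and the group named first on top of the fold. Every interval covers 0 except that of H19 in TAC against sham, which ends at -0.002.

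Meg3 (ENSMUSG00000021268.17, a lincRNA, chr12:109541001-109571726, plus strand) is the first of the maternal RNAs of its domain and is known in other tissues as a regulator of p53 and of Polycomb targeting. Its level was 3.81, 2.52, 6.36, 4.86 and 5.30 CPM in TAC mice, against 2.23, 2.91, 2.27, 3.40 and 5.54 CPM in sham mice. The groups overlap through TAC library 2 and sham library 5. The means were 4.57 ± 1.47 CPM in TAC and 3.27 ± 1.36 CPM in sham (SD, n = 5 each), a log2 fold change of 0.49 (SE 0.425, adjusted p = 0.408 by edgeR). The 95% interval, from 0.76 to 2.6-fold, is the widest of the 6 members tested in this comparison.

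In PDE5A-I mice Meg3 was 5.689, 3.881, 2.663, 4.798 and 4.972 CPM, and in PDE9A-I mice 4.905, 2.695, 4.846, 14.17, 3.265 and 1.8 CPM. Library 4 of the PDE9A-I group was the highest of all 21, and library 6 of the same group the lowest. The log2 fold change of PDE9A-I against TAC was 0.20 (SE 0.401, adjusted p = 0.845) with all mice and -0.38 without library 4 (adjusted p = 0.516), by edgeR. PDE5A-I against PDE9A-I gave -0.26 (SE 0.399, adjusted p = 0.86), and 0.33 without that library. PDE5A-I against TAC was -0.057 (SE 0.417, adjusted p = 0.993). In PDE9A-I library 4 the summed fibroblast (6054 CPM), macrophage (605 CPM) and atrial markers (63.82 CPM) were also the highest of the 21 libraries. The summed endothelial (1404 CPM) and skeletal muscle markers (1705 CPM) were the lowest. The atrial genes Myl7 and Sln were at 0.152 and 0.190 CPM there, against 11.9 and 2.42 CPM in PDE9A-I library 1. The atrial list also holds Dkk3, which rose in TAC against sham (log2 fold change 3.20, SE 0.604, adjusted p = 0.00304 by edgeR). Ckm and Acta1 averaged 2328 and 374 CPM of the 2704 CPM of the skeletal list in sham hearts. Neither sum is therefore read as atrial or skeletal tissue. In PDE9A-I library 6 the summed macrophage (359.6 CPM) and lymphocyte markers (2.428 CPM) were the lowest of the 21. The smooth muscle and pericyte markers (1780 CPM) were the highest there. Cardiomyocyte markers of library 6, at 234900 CPM, ranked 2 of 21. Its activated fibroblast markers summed to 322.8 CPM, within the sham range of 260.2 to 369.6 CPM. Abcc9 alone averaged 882 CPM of the 1634 CPM of the smooth muscle and pericyte list in sham mice. In TAC against sham Abcc9 fell (log2 fold change -0.818, adjusted p = 0.00925 by edgeR), while Tagln and Pdgfrb of that list rose. The part of these marker sums in the Meg3 values was not tested.

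Rian (ENSMUSG00000097451.10, chr12:109603940-109661716, plus strand), which carries a cluster of C/D box small nucleolar RNAs, begins 32213 bases beyond the end of Meg3. It was 6.63, 4.72, 8.41, 8.11 and 5.83 CPM in TAC mice, against 3.74, 5.15, 6.82, 5.71 and 6.74 CPM in sham mice. The groups overlap, with 2 TAC libraries above the sham range. Rian averaged 6.74 ± 1.55 CPM in TAC and 5.63 ± 1.27 CPM in sham (SD, n = 5 each), a log2 fold change of 0.26 (SE 0.231, adjusted p = 0.414 by edgeR, 95% interval 0.86 to 1.68-fold). Inhibitor groups averaged 6.33 ± 1.41 CPM with PDE5A-I (n = 5) and 5.88 ± 2.16 CPM with PDE9A-I (n = 6). Against TAC the log2 fold changes were -0.091 (SE 0.229, adjusted p = 0.983) with PDE5A-I and -0.20 (SE 0.221, adjusted p = 0.712) with PDE9A-I, by edgeR. PDE9A-I library 4, the highest for Meg3, was also the highest for Rian at 9.89 CPM.

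The first RefSeq window of Meg3 and that of Rian are shown because these RNAs varied together between mice. Capitals mark matches on either strand. The search covered the TATA box as TATAAA (in 13.6% of windows), the CCAAT box as CCAAT (37.4%), the GC box as GGGCGG (35.6%), the E-box as CACGTG (7.15%), the GATA motif as AGATAA (11.2%), and TGACG with its full form TGACGTCA (1.79%), which contains the core on both strands. The first of 2 Meg3 windows has overlapping TATA boxes just before the start, a CCAAT box at -100 and the full TGACGTCA element at -57 from the start, and it has 13 CpG. The second Meg3 window, not printed, has 0 matches to each searched motif and 1 CpG. The Rian window has 0 CpG and 1 of the searched motifs, the GATA motif at -168. No match in a window says only that these letters are not there.
Meg3 promoter, chr12:109540746-109541045 of GRCm38.p6, plus strand: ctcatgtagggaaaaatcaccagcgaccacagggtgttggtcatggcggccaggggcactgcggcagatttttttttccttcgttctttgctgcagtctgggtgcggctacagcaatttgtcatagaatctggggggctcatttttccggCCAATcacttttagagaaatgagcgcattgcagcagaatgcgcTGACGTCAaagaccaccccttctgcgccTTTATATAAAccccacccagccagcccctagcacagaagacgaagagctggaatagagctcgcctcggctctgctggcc
Rian promoter, chr12:109603695-109603994 of GRCm38.p6, plus strand: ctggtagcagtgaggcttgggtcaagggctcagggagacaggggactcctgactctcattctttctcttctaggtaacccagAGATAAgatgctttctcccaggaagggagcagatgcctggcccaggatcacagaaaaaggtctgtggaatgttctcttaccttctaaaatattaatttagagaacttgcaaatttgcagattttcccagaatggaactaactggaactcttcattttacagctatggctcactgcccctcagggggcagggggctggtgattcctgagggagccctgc

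Mirg (ENSMUSG00000097391.8, a lincRNA, chr12:109729764-109749460, plus strand), the host of a large microRNA cluster, was of low abundance. It had 29 counts in the PDE5A-I group, 21 in the PDE9A-I group, 17 in TAC and 21 in sham, and 19 of 21 libraries had at least 1. Exact two-sided permutation tests of its log2 CPM gave p = 0.46 for TAC against sham (smallest possible 0.00794) and an adjusted p of 0.833 in each of the 6 comparisons, over 12 tests of Mirg and Miat. With 12 tests to adjust over, a smallest p of 0.00794 or 0.00433 in 1 comparison alone could not pass a threshold of 0.05, so these tests do not show that Mirg or Miat was stable. With no filter on low counts, edgeR gave Mirg a log2 fold change of -0.32 in TAC against sham (SE 0.639, adjusted p = 0.783).

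The microRNAs inside these hosts were not captured by the gene table. Of the microRNA and small nucleolar RNA genes inside the members, 27 had rows, and all 27 were at 0 in every library, whose preparation began from 500 ng of total RNA and was not one for small RNAs. The host levels above are therefore levels of the long transcripts and say nothing of the mature products. A few mature sequences are given to show what each host carries, with the seed (bases 2 to 8) in capitals. The first pair is from Meg3, the second from Rian and the third from H19; the last pair, both from Mirg, share a seed.
miR-770-5p: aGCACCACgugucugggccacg
miR-770-3p: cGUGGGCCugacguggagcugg
miR-370-5p: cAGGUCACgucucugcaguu
miR-370-3p: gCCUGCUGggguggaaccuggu
miR-675-5p: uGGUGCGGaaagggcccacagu
miR-675-3p: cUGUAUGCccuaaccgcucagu
miR-453: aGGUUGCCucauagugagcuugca
miR-496a-5p: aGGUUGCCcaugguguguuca

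Elsewhere in the Dlk1-Dio3 domain, genes at its far end did pass the test. Of the 5 tested genes listed for the domain, Meg3, Rian and the flanking Wdr25 included, 2 rose and 0 fell in TAC against sham. Of all genes tested 25.2% were called, and the median log2 fold change of the 5 was 0.49. Dio3, which encodes the deiodinase that inactivates thyroid hormone, was 0.344, 0.135, 0.803, 2.40 and 0.393 CPM in TAC mice, against 0, 0, 0.0372, 0.0531 and 0 CPM in sham mice. Every TAC value was above every sham value, with 123 counts in TAC and 3 counts in sham over the 5 libraries each (adjusted p = 0.00347 by edgeR). Sham being at the floor of 3 counts, no fold is given. With at most 2 counts in any sham library, Dio3 passed the low-count filter through the TAC-operated groups. Dio3os, the noncoding RNA transcribed next to Dio3 on the other strand, was 0.515, 0.359, 1.51, 1.22 and 0.655 CPM in TAC mice, against 0.0756, 0.0350, 0.223, 0.239 and 0 CPM in sham mice (log2 fold change 2.79, SE 0.608, adjusted p = 0.00515). The groups did not overlap for either gene, where 16.5% of all genes tested had no overlap in TAC against sham. Dio3os, with at most 9 counts in any sham library, also passed the low-count filter through the TAC-operated groups. Both calls held in all 10 fits that leave out 1 TAC or sham library. Those fits keep the same low sham counts, so they and the lack of overlap are not separate support. The libraries kept strand, but the sources used here do not give the strand setting of the counting, so reads of Dio3 and Dio3os cannot be told apart for certain.

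Under the inhibitors Dio3 averaged 0.396 ± 0.287 CPM with PDE5A-I and 0.210 ± 0.151 CPM with PDE9A-I, against 0.814 ± 0.918 CPM in TAC (SD, n = 5, 6 and 5). Dio3os averaged 0.569 ± 0.226 CPM with PDE5A-I and 0.320 ± 0.219 CPM with PDE9A-I, against 0.851 ± 0.490 CPM in TAC. Neither inhibitor group was called against TAC for Dio3 or Dio3os. In PDE9A-I against TAC edgeR called 0 of the 5 domain genes and DESeq2 called 0, but 2 had an unadjusted p under 0.05, Dio3 (log2 fold change -1.94, SE 0.662, unadjusted p = 0.00808, adjusted p = 0.254) and Dio3os (-1.39, SE 0.506, unadjusted p = 0.012, adjusted p = 0.265). Of all genes tested 14.6% had an unadjusted p under 0.05 in PDE9A-I against TAC. In PDE5A-I against TAC 0 of the 5 had one, where 5.17% of all genes did, and DESeq2 called 0. In PDE5A-I against sham both Dio3 (adjusted p = 0.0219) and Dio3os (adjusted p = 0.0265) rose by edgeR. In PDE9A-I against sham 0 of the 5 domain genes were called by edgeR and DESeq2 called 1. There 2 of the 5 had an unadjusted p under 0.05, where 27.2% of all genes tested had one. Rtl1, a paternally expressed retrotransposon-derived gene of the domain that the filter removed, had 16 counts with PDE5A-I, 20 with PDE9A-I, 11 in TAC and 35 in sham. Dlk1, the paternally expressed growth regulator at the other end, had 2, 4, 0 and 1 counts in the same order. Wdr25, which flanks the domain, averaged 4.48 ± 0.394 CPM in TAC against 4.52 ± 0.350 CPM in sham.

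**Figure D3:**
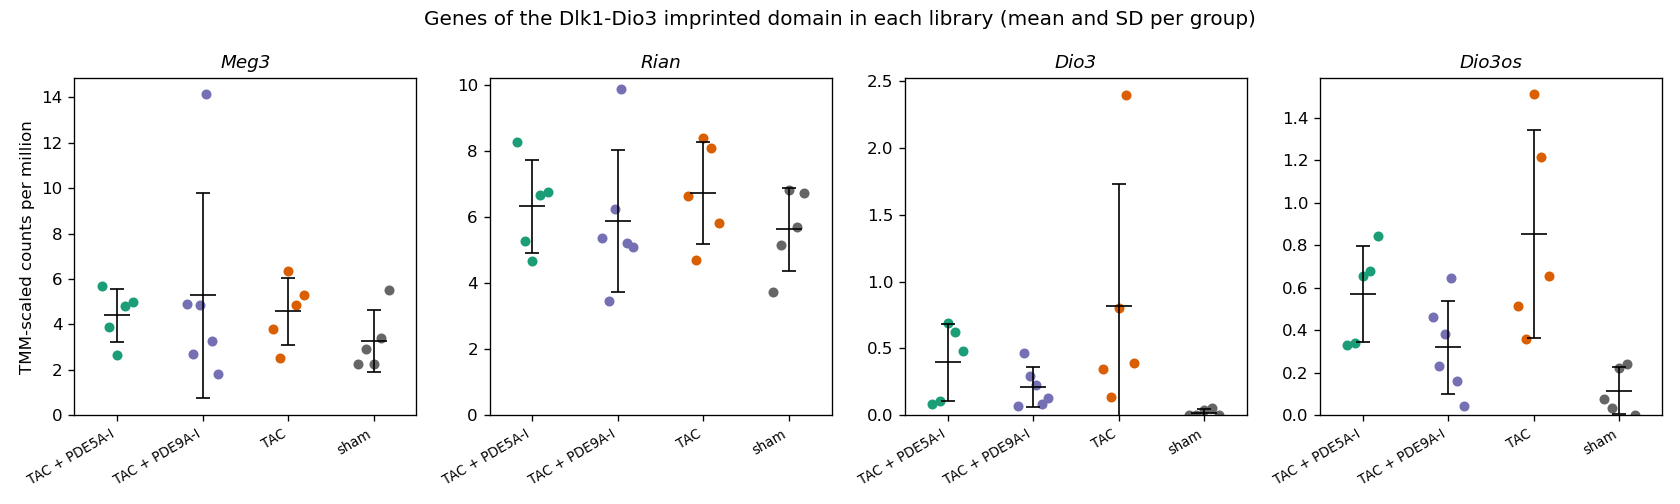
Levels of 4 genes of the Dlk1-Dio3 domain in TMM-scaled CPM (y axis, from 0, own scale per gene), with 1 point per library, groups on the x axis and bars for mean and SD of 5 or 6 mice. TAC and sham values overlap for Meg3 and Rian and are apart for Dio3 and Dio3os.

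H19 (ENSMUSG00000000031.16, a lincRNA of 2460 exonic bases, chr7:142575529-142578143, minus strand) had the largest difference among the members. This fetal RNA is repressed after birth in most tissues and stays detectable in muscle. It was 8.45, 3.46, 3.37, 6.44 and 2.16 CPM in TAC mice, against 12.97, 9.07, 2.23, 5.97 and 12.16 CPM in sham mice. Of the sham libraries, 3 lay above every TAC library, and sham library 3 was among the lowest of all. TAC averaged 4.78 ± 2.59 CPM and sham 8.48 ± 4.45 CPM (SD, n = 5 each), a log2 fold change of -0.82 (SE 0.393, 95% interval 0.32 to 0.999-fold). The unadjusted p was 0.0495 and the adjusted p 0.125 by edgeR, so H19 was not called. Without sham library 3 it was called, at a log2 fold change of -1.06 and an adjusted p of 0.0377; the other 9 fits that leave out 1 library did not call it, and all gave a lower level in TAC. Where the ear tags of a series share their first digit, mean log2 CPM was lower in TAC than in sham by -0.246 in the series beginning with 1 (2 TAC, 3 sham) and by -1.17 in the series beginning with 6 (2 and 2), and the third series holds no sham mouse.

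Mean H19 levels in the inhibitor groups lay between those of TAC and sham. The levels were 6.65, 6.38, 4.71, 7.86 and 5.34 CPM with PDE5A-I and 6.86, 5.312, 4.204, 7.2, 3.464 and 9.377 CPM with PDE9A-I. These all fall inside the sham range, and all but 1, at 9.377 CPM, inside the TAC range. Against TAC the log2 fold change was 0.37 with PDE5A-I (SE 0.393, adjusted p = 0.962) and 0.34 with PDE9A-I (SE 0.380, adjusted p = 0.713). Against sham it was -0.45 with PDE5A-I (SE 0.386, adjusted p = 0.426) and -0.48 with PDE9A-I (SE 0.371, adjusted p = 0.409), by edgeR. The order of the means was sham, PDE5A-I, PDE9A-I and TAC, with no neighbouring pair apart beyond its spread.

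Igf2, the paternally expressed growth factor gene that shares enhancers with H19, was at 5.30 ± 1.38 CPM in TAC against 5.84 ± 1.75 CPM in sham (log2 fold change -0.14, SE 0.192, adjusted p = 0.629 by edgeR). Of the 21 imprinted growth genes tested in TAC against sham, H19 included, 3 rose and 2 fell, with a median of -0.12, where 25.2% of all genes tested were called in either direction. Dcn, a matrix proteoglycan of fibroblasts, rose to 1032 ± 83.6 CPM in TAC, against 582 ± 64.7 CPM in sham (log2 fold change 0.83, SE 0.161, adjusted p = 0.00317). Snrpn, a small nuclear ribonucleoprotein of muscle and brain, fell to 31.9 ± 4.77 CPM in TAC, against 51.9 ± 8.41 CPM in sham (log2 fold change -0.70, SE 0.179, adjusted p = 0.0106). Sgce, an epsilon-sarcoglycan, rose by 0.44 (SE 0.117, adjusted p = 0.013). These 3 calls held in all 10 fits that leave out 1 library; Zdbf2, which fell by 1.62 on the log2 scale (SE 0.505, adjusted p = 0.0256), held in 6, and Grb10, an adaptor that restrains growth signalling, which rose by 0.246 (SE 0.087, adjusted p = 0.0421), held in 2. Dcn also rose in both inhibitor groups against sham, by 0.68 with PDE5A-I (adjusted p = 0.0125) and 0.64 with PDE9A-I (adjusted p = 0.0317), by edgeR.

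Gas5 (ENSMUSG00000053332.13, chr1:161034422-161038539, plus strand) makes a short spliced RNA with small nucleolar RNAs in its introns, and its coefficient of variation was 27.5% in PDE9A-I mice, 9.05% in PDE5A-I mice, 12.55% in TAC and 16.4% in sham. Its level was 20.8, 19.3, 15.5, 18.3 and 15.9 CPM in TAC mice, against 12.03, 17.02, 14.23, 12.82 and 17.34 CPM in sham mice. Of the TAC libraries, 3 lay above every sham library. TAC averaged 17.96 ± 2.25 CPM and sham 14.7 ± 2.41 CPM (SD, n = 5 each), a log2 fold change of 0.29 (SE 0.158, unadjusted p = 0.0799, adjusted p = 0.175 by edgeR, 95% interval 0.974 to 1.54-fold). PDE5A-I mice averaged 17.5 ± 1.58 CPM and PDE9A-I mice 16.7 ± 4.59 CPM. Neither was called against TAC, with log2 fold changes of -0.041 (SE 0.156, adjusted p = 0.985) for PDE5A-I and -0.10 (adjusted p = 0.786) for PDE9A-I. The highest Gas5 values of all were in PDE9A-I library 1 at 23.6 CPM and TAC library 1 at 20.8 CPM. PDE9A-I library 1 also had the highest levels of the atrial genes Myl7 (11.9 CPM) and Sln (2.42 CPM), with 0.326% of counts on Rn45s. The part of atrial genes in the Gas5 values was not tested.

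Genes that share a role with Gas5 are set here beside the 25.2% of all genes tested that were called in TAC against sham. Of 13 tested host genes of small nucleolar RNAs, Gas5 included, 12 had a positive log2 fold change in TAC against sham, with a median of 0.18 beside -0.001 for all genes tested, and 1 rose. That gene, Snhg18, was 7.76, 5.48, 10.1, 10.3 and 8.61 CPM in TAC mice, against 3.52, 5.64, 4.99, 3.66 and 6.54 CPM in sham mice (log2 fold change 0.80, SE 0.228, adjusted p = 0.017). It lost its call without TAC library 4. Among 14 factors of nonsense-mediated decay 1 rose, Upf3a, by 0.30 (SE 0.086, adjusted p = 0.0191), a call that held in 8 of 10 fits that leave out 1 library. Gas5 is also known, from human cells, to bind the glucocorticoid receptor. Of 13 genes of that receptor and its targets 0 rose and 2 fell in TAC against sham, with a median of -0.24. An unadjusted p under 0.05 was met by 6 of the 13, near the 39.6% of all genes tested, and DESeq2 called 3. Klf9, a zinc finger factor, fell by 0.52 (SE 0.158, adjusted p = 0.0232) and Per1, a clock gene, fell by 0.93 (SE 0.310, adjusted p = 0.0347), with calls in 5 and 4 of the 10 such fits.

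Miat (ENSMUSG00000097767.8, a lincRNA, chr5:112213228-112229395, minus strand) was the least abundant member, with 43 counts over all libraries and at least 1 in 17 of 21. There were 13 counts with PDE5A-I, 12 with PDE9A-I, 9 in TAC and 9 in sham. Means of log2 CPM differed between TAC and sham by 0.061 (exact two-sided permutation p = 0.929). Proteins linked to Miat by binding or by shared splicing targets were tested as 9 genes. In TAC against sham 0 of them rose and 2 fell, where 25.2% of all genes tested were called. Rbfox1, a muscle splicing factor, fell to 22.8 ± 11.1 CPM in TAC, against 45.2 ± 3.87 CPM in sham (log2 fold change -0.99, SE 0.298, adjusted p = 0.0222), and was called in 7 of the 10 fits without 1 library. Celf1, an RNA-binding splicing factor, fell by 0.17 (SE 0.060, adjusted p = 0.0457), called in 3 of them.

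The inhibitors were also set against each other. In PDE5A-I against PDE9A-I the log2 fold change was 0.094 for Malat1 (SE 0.148), -0.074 for Neat1 (SE 0.190), 0.107 for Rian (SE 0.220), 0.033 for H19 (SE 0.373) and 0.062 for Gas5. The lowest adjusted p of the 6 members was 0.86, for Meg3, by edgeR. The 95% intervals ran from 0.862 to 1.32-fold for Malat1 and from 0.597 to 1.76-fold for H19, so that an equal effect of the inhibitors was not shown. The inhibitor groups have different numbers of mice, and their doses are unknown here.

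Some pairs of members varied together from mouse to mouse. Correlations of log2 CPM were computed over the 21 libraries after removing group means, for the 15 pairs of the 6 members tested, with permutations within groups. Malat1 and Neat1 had Pearson r = 0.802 (permutation p = 0.00021, adjusted p = 0.00315) and Spearman rho = 0.778 (permutation p = 0.00025, adjusted p = 0.00375). Meg3 and Rian had r = 0.778 (permutation p = 0.00075, adjusted p = 0.00562) and rho = 0.719 (permutation p = 0.00103, adjusted p = 0.00772). The other pair that passed was Malat1 and Meg3, with r = 0.664 (permutation p = 0.00169, adjusted p = 0.00845) and rho = 0.631 (permutation p = 0.00615, adjusted p = 0.0307). The other 12 pairs did not pass, and H19 had r between -0.075 and 0.192 with each other member. How often pairs of other genes would pass was not computed, so the relations are not shown to be particular to the members. The closest of 13240 other genes had a higher r, as Tyms with Malat1 (0.940) and Nfatc4 with Meg3 (0.934).

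Each of the 3 relations stayed positive when the libraries farthest from the median were left out. Without the 2 farthest in the first-named gene r was 0.735 for Malat1 and Neat1, 0.751 for Meg3 and Rian and 0.674 for Malat1 and Meg3, and without PDE9A-I library 4 it was 0.878, 0.655 and 0.656. Within the ear tag series beginning with 1, 5 and 6 (6, 7 and 8 libraries) r was 0.865, 0.592 and 0.817 for Malat1 and Neat1. It was 0.426, 0.930 and 0.673 for Meg3 and Rian, and 0.534, 0.435 and 0.900 for Malat1 and Meg3. Paired values come from the same library and share its depth and scaling. Of 12 relations of the members with total count or Rn45s level, 0 passed, the closest being Gas5 with Rn45s (r = 0.569, permutation p = 0.0718, adjusted p = 0.614; rho = 0.479, permutation p = 0.0654, adjusted p = 0.415). For Meg3 and Rn45s r was 0.485 (permutation p = 0.143), and -0.071 without PDE9A-I libraries 4 and 6. With total count r was 0.222 for Meg3 and 0.203 for Rian, and 0.509 and 0.407 without the 2 farthest libraries of each. For Malat1 and Neat1 with total count it was 0.134 and 0.134, and -0.123 and 0.048 without theirs. The part of depth in the 3 passing pairs was not tested.

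**Figure D4:**
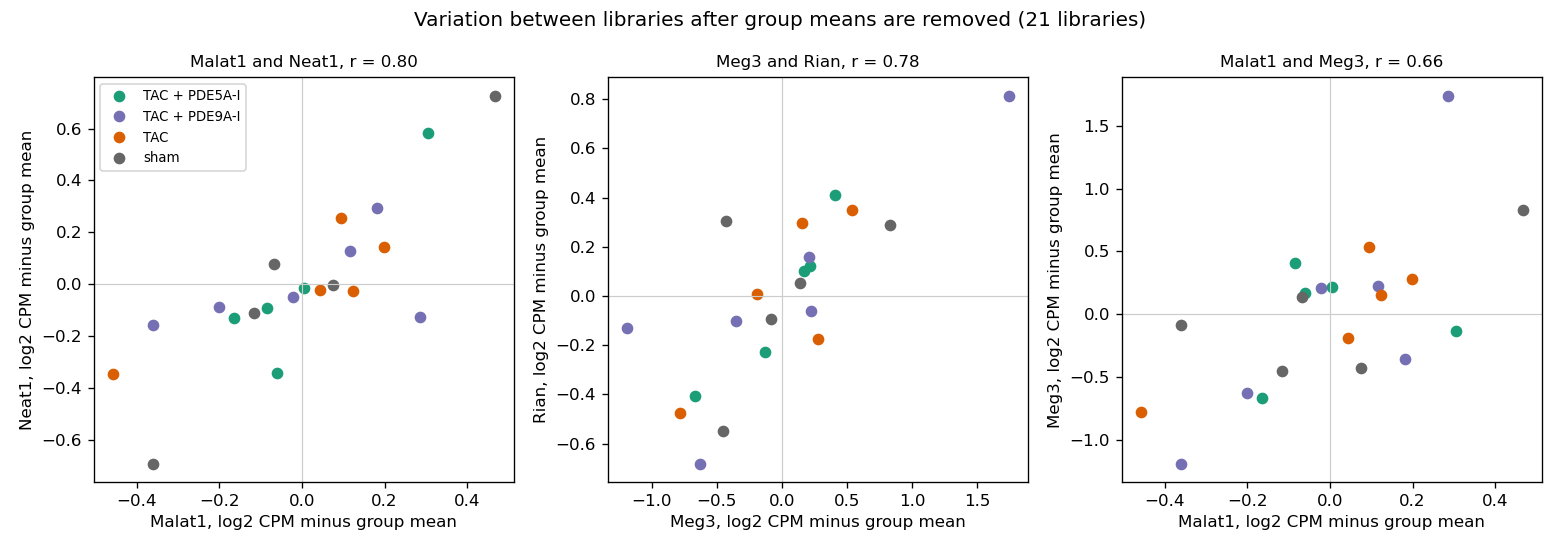
Each point is 1 of 21 libraries, coloured by group, with the log2 CPM of 1 long noncoding RNA minus its group mean on each axis. The pairs Malat1 with Neat1, Meg3 with Rian and Malat1 with Meg3 rise together, with r of 0.80, 0.78 and 0.66, and PDE9A-I library 4 is the point at the far right for Meg3 and Rian.

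Members were also set against the load response among the 16 TAC-operated mice. Of 12 relations with Myh7, the slow myosin that overload induces, and Postn, the periostin gene of activated fibroblasts, 0 passed by r or by rho. The highest were Meg3 with Postn (r = 0.544, permutation p = 0.0529, adjusted p = 0.41; rho = 0.397, permutation p = 0.166, adjusted p = 0.49) and Rian with Postn (r = 0.510, permutation p = 0.0698, adjusted p = 0.41; rho = 0.565, permutation p = 0.0384, adjusted p = 0.461). Malat1 with Myh7 had r = 0.128 (permutation p = 0.637).

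The genes most like each member were ranked among 13240 by Pearson r over the same 21 libraries with group means removed, as a description with no test. For Malat1 they were Tyms (0.940), Uba1y (0.921) and Olfr856-ps1 (0.902), and for Neat1 Mcmdc2 (0.806), Pcdhga9 (0.792) and Snrnp70 (0.791). Meg3 was most like Nfatc4 (0.934), Fchsd1 (0.908) and Ccdc157 (0.907), and Rian most like Gak (0.888), Sall2 (0.878) and Slx4 (0.863). H19 had the loosest neighbours, Smoc1 (0.780), Zfr2 (0.778) and Sall1 (0.766), and Gas5 was most like Nlrp3 (0.874), Kctd12 (0.871) and Itga4 (0.868).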

How the data were processed

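RNA was sequenced from 21 left ventricle libraries, made with a stranded total RNA kit from 500 ng, per the labels' protocols. The authors deposited RSEM expected counts per gene symbol in 1 unscaled table; 19% of its values have decimals, because RSEM divides reads that map to several places, and Malat1 has decimals in every library. The submitters' processing notes name mm10 and the tools RSEM 1.3.0, HISAT2 2.0.5, CASAVA 1.8.4 and DESeq2 1.18.1. Rows whose symbol looks like a date (27) were never named.

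Expected counts were rounded, low genes were removed with filterByExpr (minimum count 10), and all libraries entered 1 edgeR fit by group with TMM scaling (edgeR 4.0.16, R 4.3.3). CPM are counts scaled to library size. Every SE belongs to a log2 fold change. Correlations used log2 CPM with a prior count of 2 and 100000 permutations within groups. The fits were tested on simulated data. Replicates are separate animals by ear tag. Coordinates come from GENCODE release M21 and sequences from RefSeq (GRCm38.p6), which gave promoter windows for 6 members.

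All members were named. Of each list up to 4 called genes were named, lowest adjusted p first, and for likeness the 3 genes with the highest r, leaving out other members, predicted genes and Rik symbols. Igf2, Wdr25, Rtl1 and Dlk1 stand outside this rule as neighbours of members, and Bc1, Grb10, Rmst and Peg13 were named after their values were seen. Members, lists and tests were chosen with earlier results of these data known. Alternatives were no low-count filter, DESeq2 size factors, DESeq2 1.42.0, only the groups compared, a replicate block, ear tag series as a term and each library left out; leaving out PDE9A-I libraries 1 and 4, or library 4 for correlations, and the relations with total count and Rn45s were added after seeing the data.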

Additional observations from a re-analysis of the deposited data

Results flagged for a closer look

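Of 32 sets of a member's CPM in 1 group, 3 had a library far from the rest by Dixon's criterion, which chance meets in about 1 of 20 sets. Meg3 in PDE9A-I library 4 was at 14.2 CPM, the next highest of the group being 4.91. Malat1 in TAC library 2 was at 5096 CPM, the next lowest being 7218. Neat1 in PDE5A-I library 2 was at 355 CPM, the next highest being 234.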

How the results depend on the processing

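Of 612 recomputed fold changes of the members, 572 kept their direction and their side of the threshold, 39 changed sign and 1, H19 in TAC against sham without sham library 3, became called; without any 1 library the members called in TAC against sham were 0 to 1. No cause was tested for any of these shifts. Counts of called genes moved more. For PDE5A-I against TAC, PDE9A-I against TAC and PDE5A-I against PDE9A-I, DESeq2 called 8, 33 and 35 genes, and a fit of only the 2 groups compared called 0, 0 and 0. Without the low-count filter PDE9A-I against TAC gave 0. For PDE9A-I against sham the count was 329 without the filter, 1550 with DESeq2, 17 with only the 2 groups, 6 with the ear tag term and 18 without PDE9A-I libraries 1 and 4, while PDE5A-I against sham gave 3440 with only the 2 groups and 276 with the ear tag term. The ear tag term gave 1 for PDE5A-I against TAC and 0 for PDE9A-I against TAC. The labels do not say what the first digit of the ear tag marks. Sham has no ear tag beginning with 5 and PDE5A-I has none beginning with 1, so the term and the groups overlap in part. Leaving out PDE9A-I libraries 1 and 4 gave 0 for PDE9A-I against TAC and 2 for PDE5A-I against PDE9A-I. With each library left out in turn the counts ran from 1781 to 4440 for TAC against sham (lowest without TAC library 4, highest without TAC library 2), 580 to 2274 for PDE5A-I against sham, 21 to 1814 for PDE9A-I against sham, 0 to 2 for PDE5A-I against TAC, 0 to 46 for PDE9A-I against TAC and 1 to 8 for PDE5A-I against PDE9A-I.

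The labels state no pairing by replicate number. In TAC against sham 0 of 5 same-numbered pairs had a correlation over 0.1 (-0.184 to 0.048), as in either inhibitor group against sham. The count was 2 of 5 in PDE5A-I against TAC (up to 0.564) and 3 of 5 in PDE9A-I against TAC (up to 0.434). In PDE5A-I against PDE9A-I it was 3 of 5 (up to 0.34), and in no comparison did all pairs pass 0.1. With the replicate block the called genes were 1 for PDE5A-I against TAC, 0 for PDE9A-I against TAC, 0 for PDE5A-I against PDE9A-I and 2241 for PDE9A-I against sham, and Gas5 in PDE5A-I against PDE9A-I had a log2 fold change of -0.020; no member's call changed.

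Signs of uncalled log2 fold changes turned as follows. With the ear tag term they were 0.068 for Gas5 in PDE5A-I against TAC, -0.005 for Malat1 and -0.053 for Meg3 in PDE9A-I against TAC, -0.068 for Neat1 and -0.027 for Rian in PDE5A-I against sham, and -0.073 for Malat1 and -0.150 for Rian in PDE9A-I against sham. Without PDE9A-I libraries 1 and 4 they were -0.036 for Malat1 and -0.536 for Meg3 in PDE9A-I against TAC, 0.480 for Meg3 in PDE5A-I against PDE9A-I, and -0.041 for Malat1, -0.039 for Meg3, -0.164 for Rian and -0.063 for Gas5 in PDE9A-I against sham. With each library left out in turn, the log2 fold changes that turned in at least 1 fit ran, in TAC against sham, from -0.088 to 0.121 for Malat1 and -0.293 to 0.046 for Igf2. In PDE5A-I against TAC they ran from -0.203 to 0.087 for Meg3 and -0.091 to 0.020 for Gas5, and in PDE9A-I against TAC from -0.023 to 0.140 for Malat1, -0.119 to 0.024 for Neat1 and -0.383 to 0.380 for Meg3. In PDE5A-I against PDE9A-I they ran from -0.249 to 0.010 for Neat1, -0.436 to 0.327 for Meg3, -0.006 to 0.321 for Rian, -0.084 to 0.198 for H19 and -0.026 to 0.186 for Gas5. The range was -0.033 to 0.358 for Neat1 in PDE5A-I against sham, and -0.016 to 0.196 for Malat1 and -0.140 to 0.178 for Rian in PDE9A-I against sham. Correlations that turned without the 2 farthest libraries were -0.097 for Rian and H19 (-0.079 without PDE9A-I library 4), -0.306 for Malat1 and 0.059 for Neat1 with Myh7, -0.371 for Malat1 and 0.220 for Neat1 with Postn, -0.123 for Malat1 with total count, -0.071 for Meg3 and 0.417 for H19 with Rn45s; none of these relations passed. Among called list genes in TAC against sham, Zdbf2, Grb10, Dazap1, Per1, Celf1, Dleu2, Rmst, Peg13 and Ehbp1l1 were no longer called with the ear tag term, Dazap1, Klf9, Per1, Celf1 and Rmst with only the 2 groups compared, Grb10, Per1, Celf1, Rmst, Peg13 and Ehbp1l1 with no low-count filter, Celf1 and Peg13 with the replicate block, and Peg13 with DESeq2 size factors.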

Other observations

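Among the wider class of noncoding RNAs, 381 genes that GENCODE M21 annotates as long noncoding were tested. In TAC against sham 18 rose and 34 fell (13.6% called), beside 25.7% of 12900 protein-coding genes; their median level was 1.35 CPM, beside 17.8 CPM for the protein-coding genes, and whether the lower share goes with the lower level was not tested. In PDE5A-I against TAC and in PDE9A-I against TAC 0 of the 381 were called by edgeR and 0 by DESeq2. An unadjusted p under 0.05 was met by 26 and 22 of them, where 5.17% and 14.6% of all genes tested had one. The lowest adjusted p in TAC against sham was that of Bc1, a small cytoplasmic RNA known from rodent neurons, which rose to 45.75 ± 2.96 CPM in TAC, against 20.55 ± 4.16 CPM in sham. This is a log2 fold change of 1.15 with an adjusted p of 0.00202 by edgeR, and the errors are SD over 5 mice per group.

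Of 26 other named long noncoding RNAs tested, 2 rose and 4 fell in TAC against sham, where 25.2% of all genes tested were called. Pvt1, the neighbour of Myc, rose to 2.45 ± 0.572 CPM in TAC, against 1.185 ± 0.1502 CPM in sham (log2 fold change 1.048, SE 0.253, adjusted p = 0.00836). The ones that fell, with Dio3os the other that rose, were A330023F24Rik (log2 fold change -0.66), Dleu2 (-0.42), Rmst (-0.92) and Peg13 (-0.30), whose calls held in 4, 3, 4 and 1 of the 10 fits that leave out 1 library. Terc, the RNA template of telomerase, fell to 0.471 ± 0.141 CPM in TAC, against 1.01 ± 0.113 CPM in sham (log2 fold change -1.10, SE 0.222, adjusted p = 0.00373). Bc1, Pvt1, Dio3os and Terc were called in each of these 10 fits.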
